A study of Mus musculus with 24 samples.

Results

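The early response to interferon gamma was measured by setting 4 arrays of NIH-3T3 cells given IFN-gamma for 1 h against 4 arrays of cells given mock treatment for 1 h, out of 24 arrays in all. NIH-3T3 is an immortalised mouse embryonic fibroblast line. All probe sets with a log2 signal above 4 on at least 3 of the 24 arrays were compared, 19305 of the 45037 that measure transcripts. Both groups received fresh medium at time 0, which carried 100 U/ml IFN-gamma or none, and both also received 200 uM 4-thiouridine (4sU), a nucleoside built into newly made RNA, for the full 60 min. Cells had been plated at 40% density 24 h earlier and were used between the 5th and 15th passage after thawing. The array signal came from unseparated total cellular RNA, so it holds RNA made before the treatment as well as new RNA. Used beside them were 4 arrays of cells given 100 U/ml IFN-alpha for 1 h with the same 4sU. At 3 h there were 3 arrays each of mock, 100 U/ml IFN-alpha and 100 U/ml IFN-gamma (500 uM 4sU from 150 to 180 min). The IFN-alpha arrays of 3 h entered the fits, but no difference from them is given here. For a few values, 3 mock arrays at 1 h without 4sU were used.

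IFN-gamma binds a receptor made of IFNGR1 and IFNGR2 chains, which activates the kinases JAK1 and JAK2. These phosphorylate STAT proteins, which dimerise and bind gamma-activated sites (GAS) in the promoters of primary target genes such as Irf1. The IRF1 protein and complexes that contain IRF9 bind a different element, the interferon-stimulated response element (ISRE). Feedback inhibitors of the SOCS family then damp the kinases. In fibroblasts the later products include immunity-related GTPases that act on intracellular parasites and bacteria, chemokines that attract T cells, and the machinery of antigen presentation.

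The signals are GCRMA values on a log2 scale, so a difference of 1 is a 2-fold change in signal. Array medians lay between 2.95 and 3.11, and 16933 to 17688 probe sets exceeded log2 4 on each array. The cells carried transcripts that fit their label, since 18 of 18 measured fibroblast and matrix genes lay above log2 4 (median 11.9 in both groups, differences from -0.14 to 0.12). Of 10 leukocyte markers only Cd14 exceeded 4 (mean 5.36), and 0 of 12 epithelial and endothelial markers did. The replicate 2 arrays stood apart in RNA quality. Their 3′ minus 5′ signal of the beta-actin control probe sets was 2.99 for mock, 3.09 for IFN-alpha and 3.43 for IFN-gamma, against 0.785 to 1.37 on the other 9 arrays of 1 h with 4sU. Since same-numbered arrays deviated together, the replicate number was kept as a block, and each 1 h difference is the mean of 4 same-numbered differences. Its standard error (SE) comes from the limma fit on the 12 arrays of 1 h with 4sU, IFN-alpha included. It is therefore not the SE of the 4 differences alone. Differences that involve 3 h have the SE of their own fits. Nothing in the labels states that the replicates came from separate cultures. The p-values therefore reflect only how these arrays vary, possibly for technical reasons, and the small number of arrays limits precision.

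After 1 h 192 of 19305 probe sets (0.995%) differed between IFN-gamma and mock at a Benjamini-Hochberg adjusted p under 0.05 in limma. Of these 146 (0.756% of those tested) were higher and 46 (0.238%) lower. The risen probe sets with a single annotated gene covered 81 genes and the fallen ones 27. Another 35 risen and 16 fallen probe sets have no gene name in the annotation used, and 6 risen ones have several. Rises were larger than falls. The median rise was 1.23 on the log2 scale, with 30 rises of at least 2 and 16 of at least 3, whereas the median fall was 0.815, the deepest was 1.58, and 9 were of 1 or more. The median difference over all tested probe sets was -0.039.

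**Figure D1:**
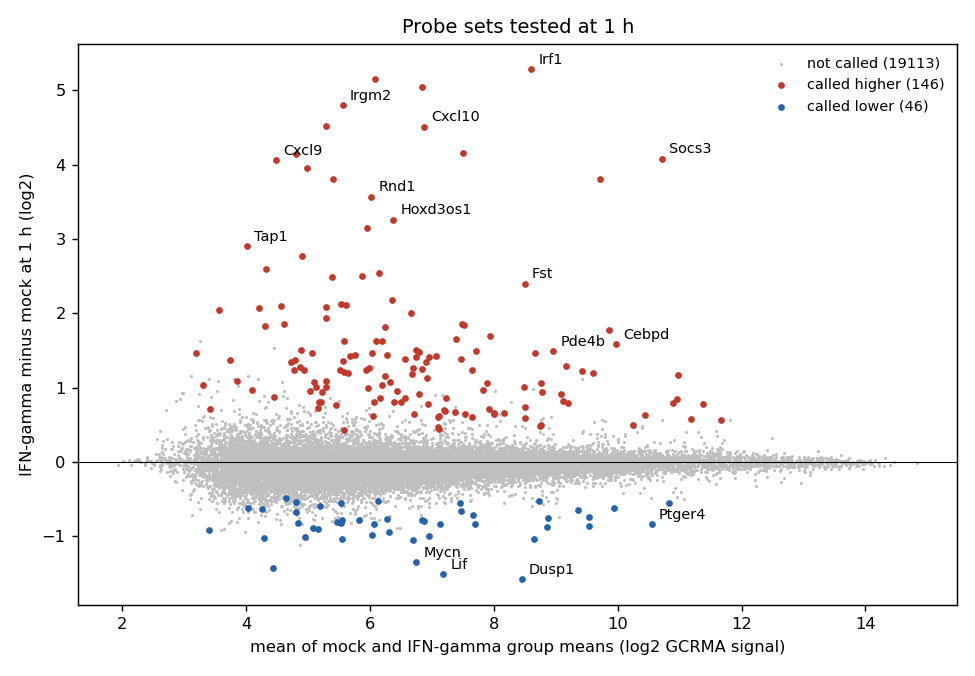
Each point is a probe set tested at 1 h, with the mean of the mock and IFN-gamma group means (log2 signal) on the x axis and the log2 difference IFN-gamma minus mock on the y axis. Red points were called higher (146), blue points lower (46) and grey points were not called. The rises reach 5.28 (Irf1) and the falls stop at 1.58 below mock (Dusp1).

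Every one of the 192 called probe sets moved in the same direction in all 4 same-numbered pairs, which was true of 18.5% of all tested probe sets. The 4 IFN-gamma arrays did not overlap the 4 mock arrays for 101 of the 146 risen probe sets and for 15 of the 46 fallen ones, against 0.746% and 0.565% of all tested. Many rises started near background. The mock mean was below log2 4, taken as background, for 21 of the 146 risen probe sets (14.4%) and for 9.15% of all tested, and for such genes the fold is given as "at least", with each array below 4 raised to 4. The number of calls depended on the block and on the replicates. Without it 46 probe sets were called on the same 12 arrays and 95 on all 24, of which 46 and 91 were among the 192. Of the 45 called genes that the rule for naming picked, 27 lost their call without it on the same 12 arrays. Of these, 18 also lost it on all 24 arrays, namely Bcl3, Bcl6, Btg1, Cebpd, Cited2, Fas, Gbp2, Gbp7, Id4, Il4ra, Mt1, Mt2, Pigg, Pim3, Skil, Sod2, Trim25 and Zfp36. The other 9 lost it on the 12 arrays alone, with adjusted p in limma of 0.162 for Dlx2, 0.219 for Dusp1, 0.38 for Ifi47, 0.176 for Mycn, 0.118 for Pde4b, 0.385 for Ptger4, 0.0502 for Rnd1, 0.0683 for Tap1 and 0.214 for Txnip. With values below 4 set to 4, 13 of the 45 lost their call, namely Bcl6, Cxcl9, Gbp2, Gbp7, Id4, Ifi47, Il4ra, Mt1, Osgin1, Pigg, Skil, Sod2 and Tap1. Leaving out replicate 1, 2, 3 or 4 from every group left 92, 110, 109 or 100 calls, and leaving out single arrays left 115 (IFN-gamma replicate 1) to 148 (IFN-gamma replicate 4), with 127 without mock replicate 4. At an unadjusted p under 0.05 there were 601 higher and 1153 lower probe sets, so more of the weak differences were downward while more of the called ones were upward.

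Among the interferon regulatory factors 2 of 8 tested genes rose and 0 fell (median difference -0.0057, against -0.041 over all 9421 genes tested, of which 66 rose and 14 fell by their representative probe set). Irf1, the transcription factor that carries the response to secondary targets, had the largest rise of the whole comparison. It read 5.82, 6.52, 5.50 and 6.01 on mock replicates 1 to 4 and 11.33, 10.81, 11.10 and 11.74 on the IFN-gamma arrays. The groups lay more than 4 log2 units apart, and no array came near the other group. The difference over the 4 pairs was 5.28 ± 0.21 (SE of the fit on 12 arrays), a 38.8-fold rise with an adjusted p of 1.45e-06. Irf9, the DNA-binding subunit of the ISRE complex, rose from 3.87, 4.53, 3.55 and 4.64 to 6.64, 6.58, 6.29 and 7.04. That is a difference of 2.49 ± 0.14, or 5.62-fold (5.08-fold with arrays below 4 raised to 4), again without overlap.

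None of the 14 tested genes for receptor chains, kinases and STAT proteins passed the test by its representative probe set (median difference -0.0021). The receptor genes Ifngr1 and Ifngr2 differed by -0.19 ± 0.26 and -0.23 ± 0.27, and both had their lowest mock and IFN-gamma values on replicate 2 (3.76 and 3.71 for Ifngr1). Jak1 differed by 0.01 ± 0.092 and Jak2 by -0.02 ± 0.14. Stat2, which joins IRF9 in the ISRE complex, differed by 1.09 ± 0.32 (adjusted p = 0.248), with IFN-gamma arrays at 4.96, 2.94, 4.17 and 4.30 against 3.04, 2.66, 3.21 and 3.08. Stat3 showed a split between its probe sets. The representative one differed by 0.45 ± 0.10 (adjusted p = 0.103), whereas 1459961_a_at, singled out after its values were seen, rose from 5.45, 5.56, 4.73 and 5.34 to 7.51, 7.66, 7.17 and 7.46 (2.18 ± 0.10, adjusted p = 6.35e-06). The third Stat3 probe set, 1426587_a_at, differed by 0.49 ± 0.25 and was not called. Of the type I receptor, Ifnar2 rose on 1427691_a_at (0.99 ± 0.16, adjusted p = 0.0187, but 0.191 without the block on 24 arrays) and not on its representative (0.33 ± 0.092, adjusted p = 0.206), a gene likewise picked out after the values were seen.

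Inhibitors of JAK-STAT signalling included 3 risen genes among 19 tested, and 0 fell (median difference 0.052). Socs3, which blocks JAK kinases and cytokine receptors of the gp130 type, rose from 8.44, 9.0, 8.80 and 8.48 to 12.59, 12.92, 12.67 and 12.87. The IFN-gamma arrays lay close together and lay far above every mock array. The difference was 4.08 ± 0.13, a 17.0-fold rise (adjusted p = 4.55e-07), and its other 2 probe sets rose by 5.04 and 3.80. Cish, another SOCS family member, went from 3.05, 4.17, 3.36 and 2.97 to 5.47, 5.10, 5.33 and 4.99 (1.83 ± 0.2, at least 2.26-fold). Cblb, a ubiquitin ligase that limits receptor signalling, rose by 2.5 ± 0.11 on its representative probe set but differed by -0.11 on its other one, 1455082_at, which was not called. Socs1, the inhibitor most closely tied to IFN-gamma, did not pass. Its mock arrays read 2.65, 2.25, 2.24 and 2.66 and its IFN-gamma arrays 5.23, 2.26, 2.65 and 6.16, so it was high on replicates 1 and 4 and at background on replicates 2 and 3 (1.62 ± 0.51, adjusted p = 0.286).

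Of 11 tested genes on the chemokine list 2 rose and 0 fell (median difference 0.31). Both encode ligands of the T cell receptor CXCR3, and they are neighbours on chromosome 5. Cxcl10 read 4.39, 5.45, 4.37 and 4.24 with mock and 9.04, 9.25, 8.60 and 9.59 with IFN-gamma. Its mock replicate 2 was the highest of the mock arrays and still lay far below all IFN-gamma arrays (4.51 ± 0.28, 22.8-fold, adjusted p = 2.1e-05). Cxcl9 was at background on all mock arrays (2.43, 2.49, 2.44 and 2.41) and at 5.87, 8.08, 5.41 and 6.67 with IFN-gamma. It rose at least 5.69-fold (4.06 ± 0.36, adjusted p = 0.000294), highest on replicate 2, and its adjusted p was 0.051 when all values below 4 were set to 4. Ccl11, which encodes the chemokine eotaxin, is not on the list and was picked out after its values were seen. It was called higher although all 8 arrays lay below 4, at 2.91, 3.13, 3.20 and 3.03 with mock and 3.75, 3.81, 3.91 and 3.64 with IFN-gamma (adjusted p = 0.00707), so it has no measurable fold.

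The immunity-related (p47) and guanylate-binding (p65) GTPases were the list with the largest share of risen members, 7 of 11 tested, with 0 fallen and a median difference of 1.9. These proteins coat and disrupt the vacuoles of intracellular pathogens. Irgm2 was at background in mock cells (2.84, 3.08, 2.89 and 3.84) and at 8.27, 7.70, 7.47 and 8.42 with IFN-gamma, at least a 15.6-fold rise (4.80 ± 0.16, adjusted p = 4.55e-07). Igtp moved from 2.64, 3.69, 2.89 and 2.89 to 7.74, 7.33, 7.04 and 8.09 (4.52 ± 0.27, at least 11.7-fold). For both genes the mock arrays stayed at background and the 4 IFN-gamma arrays lay well above it. Irgm1, a regulatory member that keeps the effector GTPases off the cell's own membranes, rose from 5.25, 5.61, 5.51 and 5.31 to 9.66, 9.25, 9.23 and 10.18 (4.16 ± 0.22, 17.9-fold). Iigp1 rose from 2.77, 3.83, 2.80 and 2.65 to 6.92, 7.96, 5.88 and 7.13 (3.96 ± 0.26, at least 7.86-fold).

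The other 3 risen members had smaller differences. Gbp7 differed by 2.10 ± 0.3 (at least 2.87-fold), Ifi47 by 1.85 ± 0.29 (at least 2.79-fold) and Gbp2 by 1.24 ± 0.22 (2.36-fold). These 3 calls were less firm. The Gbp7 call was lost without replicate 1 (adjusted p = 0.0703) or replicate 4 (0.094) and without the block on 24 arrays (0.0823), that of Ifi47 in 7 of 12 fits that left out arrays (up to 0.159), and that of Gbp2 in 9 of 12 (up to 0.222). All 3 were also lost with values below 4 set to 4, at adjusted p of 0.213 for Gbp7, 0.11 for Ifi47 and 0.0971 for Gbp2. These values are those of the representative probe sets. The other Gbp2 probe set, 1418240_at, rose by 1.44 ± 0.2 (adjusted p = 0.00626). It kept its call with values below 4 set to 4 (0.0343). That call was lost in 2 of 12 fits that left out arrays and without the block on 24 arrays (0.129). The other Gbp7 probe set, 1425156_at, differed by 0.82 and was not called. Gbp3 and Gbp6 differed by 1.12 ± 0.25 and 0.53 ± 0.26 and were not called.

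The GAS and ISRE elements could be looked for in the promoters, because 69 of the 81 risen genes have an entry in a RefSeq table of promoter windows (GRCm38.p6), of which the 250 bases before each annotated start were searched on both strands. The 5 leading risen genes whose window holds a GAS match are printed here with the 250 bases before the start, 5′ to 3′ on the gene's strand, since they show how the elements lie where this window holds a GAS match. Capitals mark a GAS match (TTCNNNGAA) or an ISRE core match (GAAA, any 2 bases and GAAA, or TTTC, any 2 bases and TTTC on the other strand). The windows are chr11:53769764-53770013 (plus strand) for Irf1, chr11:58214727-58214976 (plus) for Irgm2, chr11:58199306-58199555 (plus) for Igtp, chr11:117969367-117969616 (minus) for Socs3 and chr3:142530086-142530335 (plus) for Gbp7.
Irf1: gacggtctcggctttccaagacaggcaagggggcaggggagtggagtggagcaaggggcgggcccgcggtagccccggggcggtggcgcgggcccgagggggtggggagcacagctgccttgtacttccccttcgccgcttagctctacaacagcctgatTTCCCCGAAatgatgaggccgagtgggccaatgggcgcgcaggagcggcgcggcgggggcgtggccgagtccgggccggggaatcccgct
Irgm2: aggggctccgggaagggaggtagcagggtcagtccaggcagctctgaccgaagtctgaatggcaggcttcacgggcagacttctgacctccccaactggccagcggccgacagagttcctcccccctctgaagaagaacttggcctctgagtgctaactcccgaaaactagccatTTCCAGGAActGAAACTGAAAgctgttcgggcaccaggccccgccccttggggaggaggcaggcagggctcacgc
Igtp: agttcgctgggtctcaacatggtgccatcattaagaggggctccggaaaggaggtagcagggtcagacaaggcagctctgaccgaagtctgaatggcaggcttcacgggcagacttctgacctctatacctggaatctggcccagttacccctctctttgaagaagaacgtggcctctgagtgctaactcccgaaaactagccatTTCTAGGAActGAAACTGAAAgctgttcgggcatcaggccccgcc
Socs3: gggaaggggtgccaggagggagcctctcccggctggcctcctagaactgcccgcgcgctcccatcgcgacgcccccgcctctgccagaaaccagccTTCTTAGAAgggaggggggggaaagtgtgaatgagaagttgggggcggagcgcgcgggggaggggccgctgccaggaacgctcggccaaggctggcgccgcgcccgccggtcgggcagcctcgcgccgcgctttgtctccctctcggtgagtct
Gbp7: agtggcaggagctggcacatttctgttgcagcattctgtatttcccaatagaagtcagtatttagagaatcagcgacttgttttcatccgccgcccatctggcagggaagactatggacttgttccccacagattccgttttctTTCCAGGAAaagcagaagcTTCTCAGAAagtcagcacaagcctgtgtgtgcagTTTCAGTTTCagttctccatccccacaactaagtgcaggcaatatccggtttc

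Irf1 holds TTCCCCGAA at bases 90 to 82 before the start and Socs3 TTCTTAGAA at 154 to 146. Irgm2 has TTCCAGGAA (75 to 67) and Igtp TTCTAGGAA (45 to 37), and each is followed after 2 bases by the same ISRE core, GAAACTGAAA. The printed windows of these 2 neighbouring genes on chromosome 11 share an identical run of 55 bases. Gbp7 has 2 GAS matches (TTCCAGGAA at 106 to 98 and TTCTCAGAA at 87 to 79) and TTTCAGTTTC at 53 to 44. Cxcl10 (GAAAGTGAAA, 213 to 204) and Irgm1 (2 overlapping ISRE cores between bases 30 and 15) have an ISRE core and no GAS match in this window. Of the 20 leading risen genes 16 have a window, and 9 of these hold neither element there: Cxcl9, Hoxd3os1, Tap1, Cblb, Irf9, Osgin1, Ifi47, Txnip and Cish.

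Over all risen genes in the table, 17 of 69 (24.6%) had a GAS match before any of their starts and 7 (10.1%) an ISRE core, and 4 (5.8%) had both in a single window. Among all 7724 tested genes with a window the shares were 6.78%, 3.09% and 0.324%. Of 24 fallen genes 3 (12.5%) had a GAS match, Bcl6, Ptpre and Saysd1, and 0 had an ISRE core. Iigp1, Rnd1, Fst and Map3k8 are leading genes with no window in the table. A match describes these letters only and is not a shown binding site.

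Genes for MHC class I presentation had 1 riser among 15 tested and 0 fell (median difference 0.036). Tap1, which pumps peptides into the endoplasmic reticulum, read 3.10, 2.03, 2.03 and 3.07 with mock and 5.93, 4.06, 5.46 and 6.39 with IFN-gamma. All mock arrays were at background, and the rise was at least 2.75-fold (2.90 ± 0.23, adjusted p = 0.000159, but 0.239 with values below 4 set to 4). The immunoproteasome gene Psmb9 differed by 1.02 ± 0.23 (adjusted p = 0.092) and Cd274, which encodes PD-L1, by 0.93 ± 0.23 (0.154). Nlrc5, the class I transactivator, stayed at background on all 8 arrays, at 2.35, 2.41, 2.37 and 2.41 with IFN-gamma. The only tested MHC class II list member was not called.

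Of 38 antiviral effectors of the type I response 1 rose and 0 fell (median difference 0.062). Trim25, a ubiquitin ligase of RNA sensing, rose from 8.54, 9.18, 8.45 and 8.28 to 9.40, 10.10, 9.30 and 9.35 (0.92 ± 0.12, 1.9-fold). The call was lost without replicate 1 (adjusted p = 0.067) or replicate 2 (0.0645). Ifit1 read 4.19, 7.27, 4.40 and 4.22 with mock and 4.55, 7.97, 3.08 and 3.91 with IFN-gamma, so replicate 2 was high in both groups (-0.15 ± 0.56). Usp18 and Mx1 were at background in both groups, with differences of 0.03 ± 0.35 and 0.09 ± 0.39. Their same-numbered differences spanned only -0.03 to 0.07 and -0.05 to 0.21, while the SEs also take in the spread of the IFN-alpha arrays.

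**Figure D2:**
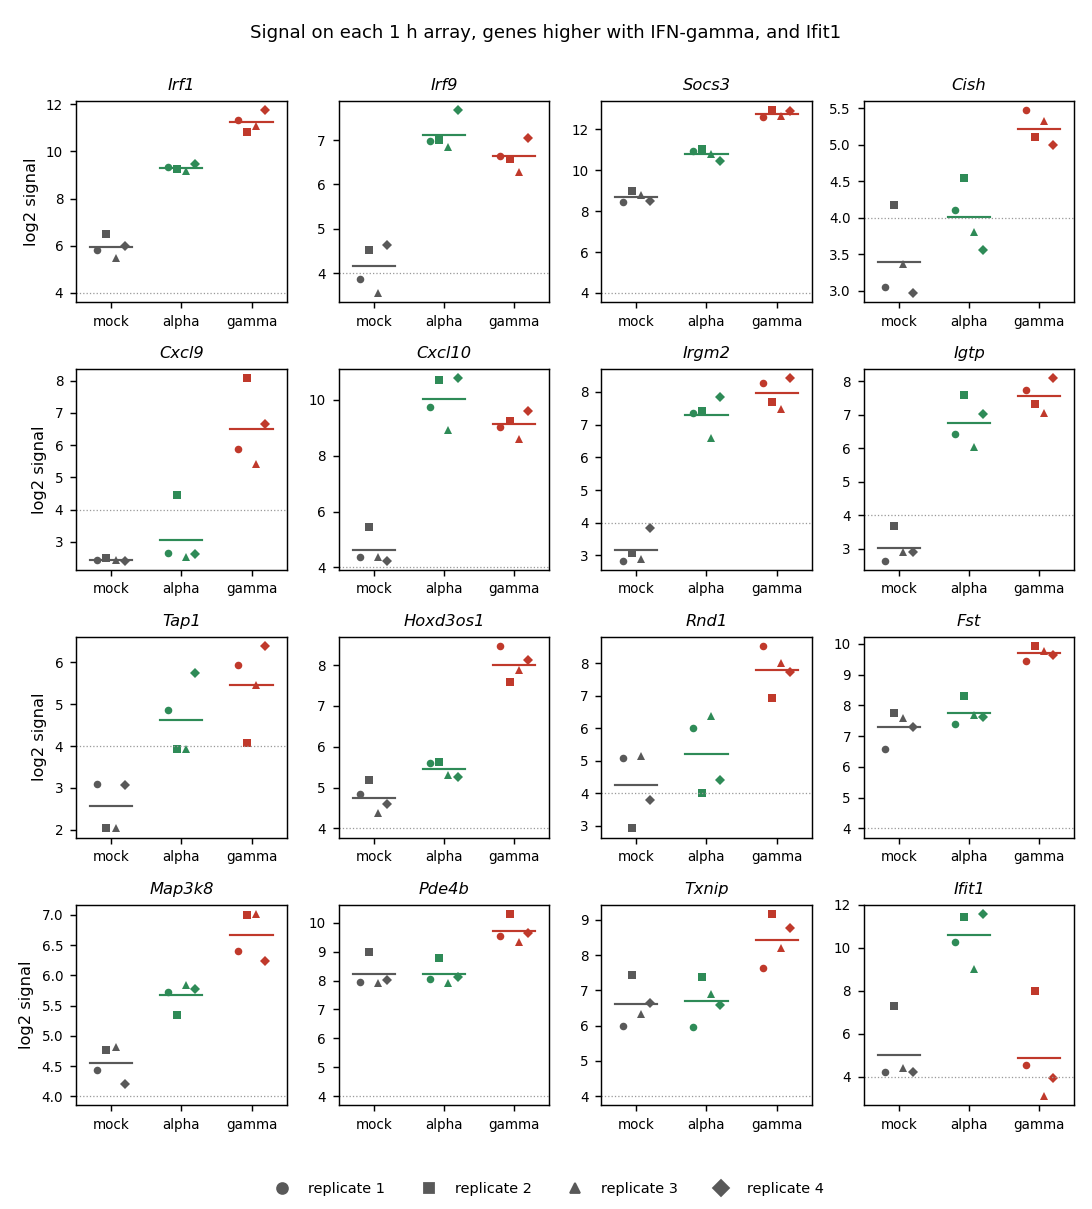
Log2 signal of 16 genes on each of the 12 arrays of 1 h with 4sU, in mock (grey), IFN-alpha (green) and IFN-gamma (red) cells, with marker shape giving the replicate number, a line the group mean and a dotted line log2 4. The IFN-gamma arrays of Irf1, Socs3, Hoxd3os1 and Cxcl9 lie above all IFN-alpha and mock arrays, while Ifit1 is high with IFN-alpha and, in the other groups, on replicate 2.

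NF-kB subunits, regulators and targets included 5 risen genes among 24 tested, and 0 fell (median difference 0.016). Map3k8, a kinase that links NF-kB and MAP kinase signalling, rose from 4.44, 4.77, 4.81 and 4.2 to 6.41, 7.0, 7.02 and 6.23 (2.11 ± 0.18, 4.32-fold, adjusted p = 0.000209). Tnfaip2, a TNF-induced gene, rose by 1.77 ± 0.15 and Bcl3, an IkB-like cofactor, by 1.5 ± 0.11. The Bcl3 values show what pairing did. Its mock arrays read 6.56, 5.11, 5.57 and 6.77 and its IFN-gamma arrays 7.98, 6.65, 7.22 and 8.14, so the groups overlap although all 4 pairs differ by 1.38 to 1.66, and without the block on 24 arrays its adjusted p was 0.108. Sod2, the mitochondrial superoxide dismutase, rose by 0.58 ± 0.11, a call that was lost in all 12 fits that left out arrays (adjusted p up to 0.249).

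The list of cytokines and growth factors had 1 rise and 1 fall among 16 tested (median difference -0.089). Il6, an inflammatory cytokine that signals through gp130, rose from 6.71, 6.54, 7.47 and 7.64 to 8.30, 8.71, 9.10 and 9.03 (1.70 ± 0.15, 3.24-fold, adjusted p = 0.000294). Lif, which also signals through gp130, fell from 8.01, 7.93, 7.84 and 7.97 to 6.44, 6.57, 6.56 and 6.12. The mock values of Lif lay within a narrow band and no IFN-gamma array came close to it (-1.51 ± 0.14, 2.86-fold lower, adjusted p = 0.000393). Gdnf, a neurotrophic growth factor that is not on the list and was picked out after its values were seen, was called higher by 1.01 ± 0.16 (adjusted p = 0.0158). That call was lost in 10 of 12 fits that left out arrays (up to 0.0965) and without the block.

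Targets of gp130 and STAT3 signalling had 5 rises and 1 fall among 20 tested (median difference 0.084). Beside Socs3 and Bcl3, these were Cebpd, a C/EBP transcription factor of the acute phase response (1.58 ± 0.16, 3-fold), the kinase gene Pim3 (1.22 ± 0.16) and Il4ra, the interleukin 4 receptor chain (0.80 ± 0.15). The Cebpd arrays overlapped between groups, at 9.46, 7.71, 9.11 and 10.48 with mock and 11.02, 9.55, 10.68 and 11.83 with IFN-gamma, and each pair rose by 1.35 to 1.85. Without the block on 24 arrays its adjusted p was 0.399. Bcl6, a transcriptional repressor, fell by 0.84 on the log2 scale (SE 0.15). The calls of Il4ra and Bcl6 were lost in 11 and 10 of 12 fits that left out arrays (adjusted p up to 0.185 and 0.2), and that of Pim3 without replicate 1 (0.0679).

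Several leading rises lay outside the textbook interferon lists. Hoxd3os1, an antisense transcript of the HoxD cluster as the annotation names it, rose from 4.85, 5.19, 4.37 and 4.59 to 8.47, 7.59, 7.87 and 8.12 (3.26 ± 0.18, 9.59-fold, adjusted p = 1.38e-05). It was the only riser among 12 tested Hox and Dlx genes. Rnd1 read 5.08, 2.91, 5.16 and 3.80 with mock and 8.54, 6.92, 8.02 and 7.74 with IFN-gamma. Replicate 2 was lowest in both groups, and the difference of 3.57 ± 0.23 was 11.9-fold (9.49-fold with arrays below 4 raised to 4). Fst encodes follistatin, a secreted inhibitor of activins. It rose from 6.57, 7.75, 7.59 and 7.29 to 9.43, 9.93, 9.78 and 9.65 (2.40 ± 0.14, 5.27-fold), the only rise among 25 genes of the activin, BMP and TGF-beta pathway, of which Id4 and Skil fell.

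Osgin1, an oxidative stress response gene, rose from background (3.32, 2.79, 3.23 and 3.33) to 5.26, 4.74, 4.60 and 6.36, at least 2.37-fold (2.07 ± 0.21), and its adjusted p was 0.192 with values below 4 set to 4. Txnip, an inhibitor of thioredoxin and of glucose uptake, rose from 6.0, 7.44, 6.32 and 6.64 to 7.62, 9.17, 8.20 and 8.77 (1.84 ± 0.14, 3.58-fold). Pde4b, a phosphodiesterase that breaks down cAMP, rose from 7.96, 8.97, 7.90 and 8.03 to 9.54, 10.31, 9.33 and 9.65. Replicate 2 was highest in both groups, and the 4 pairs differed by 1.34 to 1.61 (1.49 ± 0.086, 2.81-fold, adjusted p = 1.54e-05). The metallothionein genes Mt1 and Mt2, which bind zinc and copper, rose by 0.79 ± 0.15 and 1.17 ± 0.17. Without the block on 24 arrays neither was called, and the Mt1 call was lost in 11 of 12 fits that left out arrays (adjusted p up to 0.253) and that of Mt2 without replicate 1 (0.0647), 2 (0.092) or 4 (0.0712).

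Immediate early genes of serum and MAP kinase signalling, had 2 rises and 0 falls among 38 tested (median difference -0.14). Zfp36, which encodes the mRNA-destabilising protein tristetraprolin, rose by 1.29 ± 0.17 and Btg1, an antiproliferative gene, by 0.56 ± 0.078. The Zfp36 call was lost without replicate 2 (adjusted p = 0.0503) or 4 (0.0712), and the Btg1 call without any replicate in turn (adjusted p from 0.0677 to 0.0977). Fas, a death receptor on the lists of cell death and of p53 targets, rose by 0.60 ± 0.09 and lost its call in 8 of 12 such fits (up to 0.14). It was the only called gene among 15 cell death and 14 p53 list members.

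**Figure D3:**
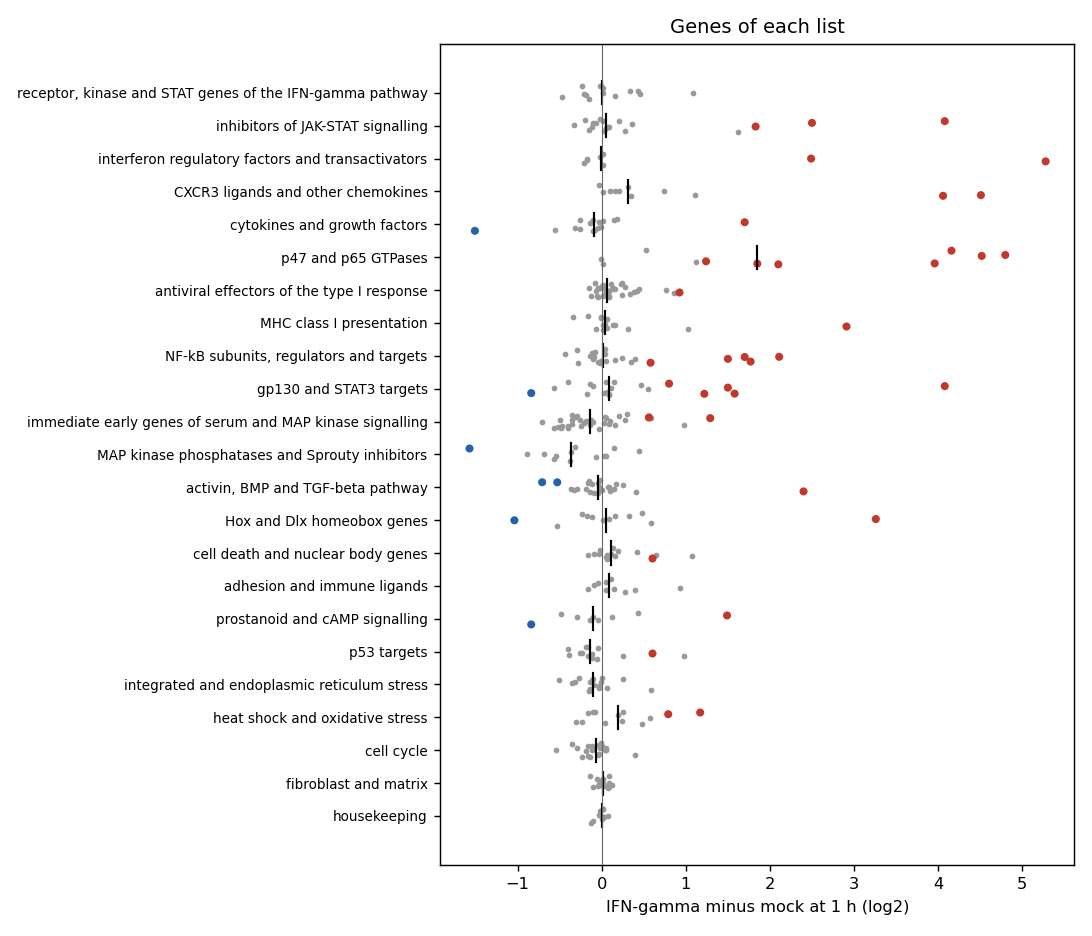
Each point is the log2 difference IFN-gamma minus mock at 1 h of a tested gene, by its representative probe set, with the lists as rows. Red and blue points were called higher and lower, grey points were not called, and a vertical bar marks the list median. The GTPase list has its median at 1.9 and 7 of 11 genes called, while fibroblast, housekeeping, cell cycle and endoplasmic reticulum stress genes have none called. Over all 9421 genes tested 66 were called higher and 14 lower.

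The falls were fewer and smaller. Dusp1, a MAP kinase phosphatase, had the deepest, from 9.02, 9.07, 8.91 and 9.95 to 7.17, 7.87, 7.37 and 8.24. All IFN-gamma arrays lay below all mock arrays (-1.58 ± 0.19, 2.98-fold lower, adjusted p = 0.00265), and the adjusted p was 0.0562 without replicate 4. Dusp1 was the only called gene among 13 MAP kinase phosphatases and Sprouty inhibitors, a list with a median difference of -0.37. Of this list 6 members were lower at an unadjusted p under 0.05, and 1 was higher, while over all 9421 genes tested 552 were lower and 254 higher at that threshold.

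Mycn, which encodes a Myc family transcription factor, fell from 7.88, 7.51, 7.17 and 7.13 to 6.45, 6.56, 5.70 and 5.58 (-1.35 ± 0.11, 2.55-fold lower, adjusted p = 0.000215). Dlx2, a homeobox gene, fell from 9.19, 9.17, 8.94 and 9.36 to 8.14, 8.05, 7.85 and 8.47 (-1.04 ± 0.11). In neither gene did the groups overlap. Cited2, a CBP/p300-binding coregulator, went from 9.97, 10.53, 10.06 and 10.44 to 9.25, 9.97, 9.36 and 9.92 (-0.62 ± 0.085), and its call was lost without replicate 1 (adjusted p = 0.101), 3 (0.0686) or 4 (0.0562) and without the block on 24 arrays (0.458). Id4, an inhibitor of bHLH factors, and Skil, a corepressor of SMAD proteins, fell by 0.71 and 0.53 on the log2 scale, with calls lost in 10 and 12 of 12 fits that left out arrays (adjusted p up to 0.284 and 0.304).

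Ptger4, a prostaglandin E2 receptor, went from 10.68, 11.23, 10.90 and 11.06 to 9.78, 10.50, 9.98 and 10.26 (-0.84 ± 0.088, 1.79-fold lower, adjusted p = 0.00107), on the same list of 9 prostanoid and cAMP genes on which Pde4b rose. Ankrd1, picked out after its values were seen, encodes a stretch-responsive nuclear ankyrin repeat protein and fell on both of its called probe sets (-0.86 ± 0.099 and -0.87 ± 0.12), with some overlap between arrays and with adjusted p of 0.057 and 1 without the block on 24 arrays. Rgs4, an inhibitor of G protein signalling picked out in the same way, fell by 1.01 on the log2 scale (SE 0.17), a call lost in 9 of 12 fits that left out arrays and without the block on 24 arrays. Pigg, a gene of GPI anchor synthesis, was called lower, but all 4 of its IFN-gamma arrays lay below 4, so its fall is only known to be at least 1.27-fold. Its call was lost with values below 4 set to 4 (adjusted p = 0.287), in 10 of those 12 fits (adjusted p up to 0.249) and without the block on 24 arrays (0.209).

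**Figure D4:**
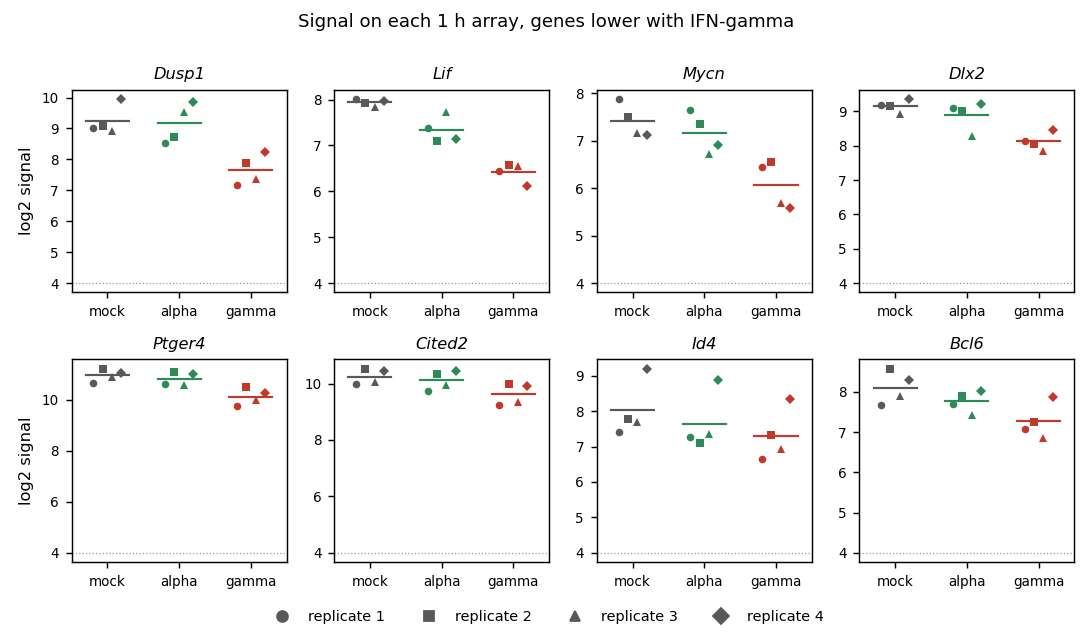
Log2 signal of 8 fallen genes on each of the 12 arrays of 1 h with 4sU, drawn as in the plot of risen genes. For Dusp1, Lif, Mycn, Dlx2, Ptger4 and Cited2 the 4 IFN-gamma arrays (red) lie below the 4 mock arrays (grey), while for Id4 and Bcl6 the groups overlap and only the same-numbered arrays differ throughout.

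Calls were rare, with 66 rises and 14 falls over all 9421 genes tested, so a short list can easily hold none. Several lists had no called member. This held for 18 fibroblast and matrix genes (median difference 0.016, and 0 at an unadjusted p under 0.05), 10 housekeeping genes (0.0074), 24 cell cycle genes (-0.067), 17 genes of the integrated and endoplasmic reticulum stress responses (-0.1) and 10 adhesion and immune ligand genes (0.082). At an unadjusted p under 0.05 in limma 4 cell cycle genes were lower and 1 higher, and 2 stress genes were lower and 1 higher. The adhesion and immune ligand list went the other way at that threshold, with 3 of 10 genes higher and 0 lower. Over all genes tested 68.5% of those under this threshold were lower.

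For genes with several probe sets the signs were compared. The genes were picked by a call on these same arrays, and the called probe set is counted. No share over all tested genes was taken, so the counts are a description and not a check. Of 108 genes with a called probe set 60 had more than 1 tested, and for 54 of these 60 every probe set had the same sign. All probe sets were called for 15 genes, and 28 genes were called only by a probe set other than the representative one. Samhd1, a dNTP hydrolase that restricts viruses and a gene picked out after the values were seen, rose on all 3 of its probe sets, by 1.38, 0.69 and 3.81. The call of the probe set with the smallest rise, 1434438_at (adjusted p = 0.0489), was lost in all 12 fits that left out arrays (up to 0.231) and without the block on 24 arrays (0.0794). On 1444064_at, the probe set with the largest rise, it read 3.18, 4.29, 3.32 and 3.18 with mock and 7.04, 8.01, 6.89 and 7.30 with IFN-gamma. Sting1, an adaptor of DNA sensing picked out in the same way, rose by 1.23 and 1.34 on its 2 called probe sets. The 6 genes whose probe sets differ in sign include Cblb and Pim3.

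A direct test against IFN-alpha at 1 h showed which changes differed between the interferons. It compared the same IFN-gamma arrays with the IFN-alpha arrays. Mock arrays entered it through the shared fit, which sets the block and the estimate of spread. It called 151 of 19305 probe sets (0.782%), 92 higher (0.477%) and 59 lower (0.306%) with IFN-gamma. Fitted on the 8 arrays of the 2 interferons alone, it called 61, of which 43 were higher and 18 lower. Of the 146 risen probe sets 79 (54.1%) were also higher than with IFN-alpha, 4 were lower and 63 were not called. Since the IFN-gamma arrays enter both comparisons, these shares are a description. Named by size were the 8 genes most above IFN-alpha. They included Rnd1 (2.60 ± 0.23), Hoxd3os1 (2.56 ± 0.18), Cblb (2.01 ± 0.11), Socs3 (1.97 ± 0.13), Fst (1.94 ± 0.14) and Irf1 (1.93 ± 0.21). The other two, Cxcl9 and Osgin1, lay near background with IFN-alpha (2.66, 4.44, 2.53 and 2.62 for Cxcl9) and have only a lower bound. With IFN-alpha arrays below 4 raised to 4, Cxcl9 was higher with IFN-gamma by at least 2.40 on the log2 scale (adjusted p of the difference as measured 0.00157) and Osgin1 by at least 1.24. For Irf1 and Socs3 IFN-alpha arrays lay between mock and IFN-gamma, at 9.34, 9.26, 9.19 and 9.45 for Irf1 and 10.94, 11.02, 10.78 and 10.44 for Socs3.

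The GTPase genes were not told apart between the interferons at 1 h. IFN-gamma minus IFN-alpha was 0.66 ± 0.16 for Irgm2 (adjusted p = 0.147), 0.78 ± 0.27 for Igtp (0.359), 0.73 ± 0.22 for Irgm1 (0.281) and 1.16 ± 0.26 for Iigp1 (0.116). Cxcl10 (-0.92 ± 0.28), Irf9 (-0.48 ± 0.14) and Il6 (-0.30 ± 0.15) had values below 0 and were not called. Trim25 was lower with IFN-gamma than with IFN-alpha (-0.78 ± 0.12, adjusted p = 0.0198), although it was above mock. Among the 8 genes named by size in that direction were the antiviral genes Ifit1 and Ifit3 and the feedback gene Usp18. Their IFN-gamma arrays lay at or near background, apart from replicate 2 of Ifit1 (7.97). With arrays below 4 raised to 4, IFN-alpha exceeded IFN-gamma by at least 5.45 for Ifit1, 3.51 for Ifit3 and 1.97 for Usp18, while Rtp4, which was above background on all IFN-gamma arrays, differed by -2.63 ± 0.32. Of the 46 fallen probe sets 14 (30.4%) were also lower than with IFN-alpha and 0 were higher. These included Dusp1 (-1.5 ± 0.19), Mycn (-1.09 ± 0.11), Lif (-0.91 ± 0.14), Dlx2 (-0.78 ± 0.11) and Ptger4 (-0.70 ± 0.088).

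The same probe sets were followed at 3 h on arrays that do not enter the 1 h comparison. There 1717 of 19305 probe sets (8.89%) were called, 1018 higher (5.27%) and 699 lower (3.62%). Of the 146 that rose at 1 h 121 (82.9%) were higher at 3 h, 0 were lower and 25 were not called. Of the 46 that fell at 1 h 18 (39.1%) were lower at 3 h, 0 were higher and 28 were not called. The median 3 h difference was 1.18 for the former and -0.318 for the latter. The dose and window of 4sU also changed between the times, in mock and IFN-gamma cells alike, and cannot be told apart from time.

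**Figure D5:**
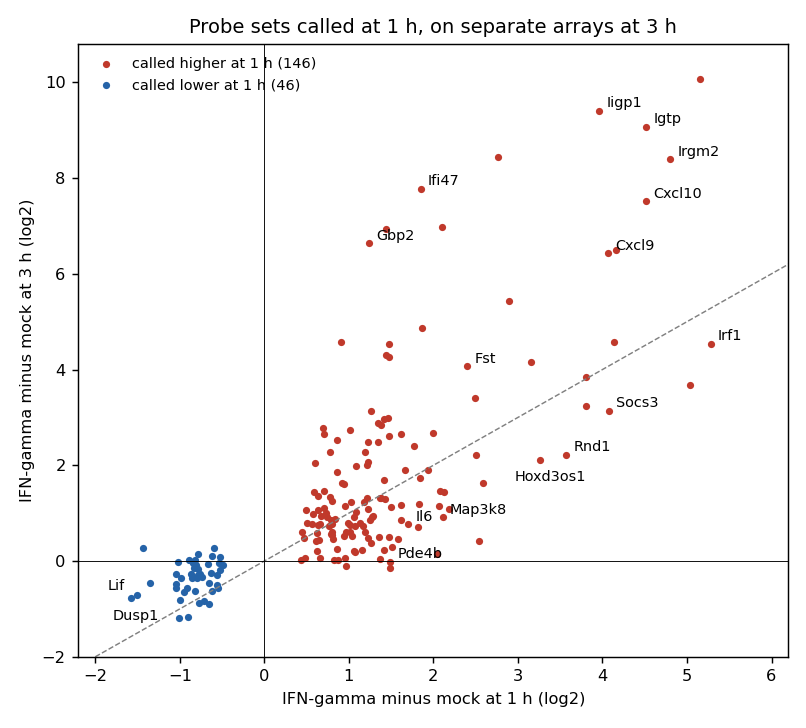
Log2 difference IFN-gamma minus mock at 1 h (x axis) and at 3 h (y axis, separate arrays) for the 192 probe sets called at 1 h, risen in red (146) and fallen in blue (46), with equality as a dashed line. GTPase genes, Cxcl9 and Cxcl10 lie far above the line, Irf1, Socs3, Rnd1 and Hoxd3os1 below it, and Pde4b lies at 0 on the y axis.

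The difference between the responses was tested itself, with 527 of 19305 probe sets called (2.73%), 100 with the more positive response at 1 h (0.518%) and 427 with the more positive one at 3 h (2.21%). That fit used a single estimate of spread for both times, although the 1 h arrays varied more, so the error of the 1 h response may be understated in it. Of the 146 risen probe sets 42 were called with a larger difference from mock at 3 h and 24 with a larger one at 1 h, and 80 were not called. All 11 tested GTPase genes differed between the times and were higher than mock at 3 h. Over all 9421 genes tested 307 differed between the times and 546 were higher at 3 h, and the filter could admit genes through their 3 h values. Iigp1 went from a difference of 3.96 at 1 h to 9.40 at 3 h, Ifi47 from 1.85 to 7.77 and Gbp2 from 1.24 to 6.64. Igtp reached 11.94, 12.06 and 11.92 on the 3 h IFN-gamma arrays against 3.03, 3.01 and 2.67 with mock, at least 251-fold.

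For several regulators the 3 h difference was no larger than that at 1 h. Irf1 differed by 4.54 ± 0.077 at 3 h, and its change between the times was not called (1 h minus 3 h 0.74 ± 0.26, adjusted p = 0.25). The Socs3 difference was smaller at 3 h, at 3.14 ± 0.096 (1 h minus 3 h 0.95 ± 0.18, adjusted p = 0.00713), as were Hoxd3os1 (1.14 ± 0.24, 0.016), Map3k8 (1.2 ± 0.22, 0.00634), Cebpd (1.11 ± 0.21, 0.00689) and Rnd1 (1.35 ± 0.32, 0.0379). The IFN-gamma mean of Hoxd3os1 was 8.01 at 1 h and 8.42 at 3 h and that of Cebpd 10.77 and 10.76, while their mock means were higher at 3 h, at 6.30 against 4.75 and 10.29 against 9.19. For Socs3, Map3k8 and Rnd1 the IFN-gamma mean was lower at 3 h, at 11.62, 4.51 and 5.77 against 12.76, 6.66 and 7.80. Pde4b did not differ detectably from mock at 3 h. Its 3 h arrays read 8.57, 8.70 and 8.65 with IFN-gamma and 8.61, 8.89 and 8.47 with mock (-0.01 ± 0.1), and the change from 1 h was 1.5 ± 0.13 (adjusted p = 5.59e-06). Fst rose further, from a difference of 2.40 to 4.07 ± 0.10 (adjusted p of the change 6.15e-05). Of antiviral effectors 31 of 38 were higher at 3 h against 1 at 1 h, and of class I genes 12 of 15 against 1. Nlrc5 went from background at 1 h to 7.28, 7.07 and 6.78 at 3 h.

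Among the 46 fallen probe sets 13 were called in this test, all with the more negative difference at 1 h, and 33 were not called. Called or not, the 1 h minus 3 h difference was above 0 for only 7 of the 46. Mycn differed by -1.35 at 1 h and -0.46 at 3 h (adjusted p of the change 0.00155), Lif by -1.51 and -0.71 (0.0459), Ptger4 by -0.84 and -0.33 (0.034) and Bcl6 by -0.84 and -0.03 (0.0313). In all 4 of these genes the mock mean was lower at 3 h than at 1 h, at 6.58 against 7.42 for Mycn, 4.93 against 7.94 for Lif, 8.60 against 10.97 for Ptger4 and 6.63 against 8.11 for Bcl6. Cited2 differed by -0.62 and -0.63, and Dusp1 by -1.58 and -0.78, a change that was not called (adjusted p = 0.133).

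Mock arrays without 4sU offered a further control for the levels, with the caveat that they differ from the IFN-gamma arrays in 4sU as well. Their actin 3′ minus 5′ signals were 0.878, 2.22 and 3.31, so 2 of the 3 were high, like the replicate 2 arrays. Against them IFN-gamma arrays differed by 5.37 for Irf1, 4.2 for Socs3, 4.77 for Irgm2, 4.43 for Cxcl10 and 3.11 for Hoxd3os1, close to the values against mock with 4sU. Other named genes depended more on which mock was used, and those given here are examples. For Lif the difference was larger (-2.21, against -1.51), as for Mycn (-1.98, against -1.35), Mt2 (1.89, against 1.17) and Zfp36 (2.03, against 1.29). It was smaller for Pde4b (0.79, against 1.49) and Sod2 (0.27, against 0.58). For Pigg, which lay near background, no fall was seen against these arrays (0.01, against -0.62). Pde4b read 8.34, 9.25 and 9.15 on the 3 arrays and was highest on those with the high actin signals, whose part in the value was not tested. No test was made on these values.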

How the data were processed

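Total RNA of NIH-3T3 cells was labelled with biotin by the Affymetrix one-cycle protocol and read on one-colour arrays, per the labels. GCRMA was used by the authors to summarise each array, per the submitters' processing notes, and their deposited values are log2 signals. The GCRMA version, and whether all arrays shared a run, are not given in the sources used here. The values were used as deposited. Of 45037 probe sets 19305 were tested. A gene name was used only where the platform annotation gives a probe set a single symbol (34945 probe sets), and the probe set of highest mean across all 24 arrays represents a gene. Other items are not analysed here.

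The 12 arrays of 1 h with 4sU (mock and both interferons) were fitted by lmFit and eBayes of limma 3.58.1 (in R 4.3.3, reading with the package data.table, version 1.17.8), with a mean per group and the replicate number as a block. Tests were two-sided, adjusted by Benjamini-Hochberg over all 19305. The change between times was fitted on the 21 arrays with 4sU, with the number as a block within each time, and the 3 h comparison on its 9 arrays, a fit added after the data were seen. The pairing was checked with the correlation (r) of same-numbered arrays after their group means were subtracted. Over 12 same-numbered pairs r lay between 0.465 and 0.914, and 12 of 12 arrays correlated best with their own number. The median residual SD at 1 h was 0.402 without the block and 0.186 with it, and at 3 h it was 0.139 and 0.107. The fit of the change between times nevertheless used a single estimate of spread for both. The fits were tested on simulated data.

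Named were the 20 rising and up to 15 falling called genes with the largest difference, the same sign in all 4 pairs and no overlap between the groups, up to 6 called members of each gene list, a fixed set of pathway genes, and the 8 largest called differences each way between the interferons and between the times. The comparison, lists and rules were chosen with earlier results of these data known.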

Additional observations from a re-analysis of the deposited data

Results flagged for a closer look

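In 7 of 90 groups of 4 arrays tested, the highest or lowest array lay far from the other 3 (Dixon's test, which flags about 1 in 20 groups by chance). On mock replicate 2 these were Cxcl10 at 5.45 (others 4.24 to 4.39), Gbp7 at 4.39 (next 3.31), Iigp1 at 3.83 (next 2.80) and Pde4b at 8.97 (next 8.03), and on IFN-gamma replicate 2 Trim25 at 10.10 (next 9.40). Replicate 2 also had the high 3′ minus 5′ actin signals, and their part in these values was not tested. On mock replicate 4 they were Dusp1 at 9.95 (next 9.07) and Btg1 at 11.69 (next 11.32).

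Responses that differ between 1 h and 3 h were called for 527 probe sets in limma. The named genes with the more positive response at 3 h, given as 1 h minus 3 h on the log2 scale, were BC023105 (-6.25), Gbp6 (-6.24), Ifi47 (-5.92), Oasl2 (-5.88), Iigp1 (-5.44), Gbp2 (-5.41), Parp14 (-5.31) and Gbp3 (-5.09). Of these, BC023105, Oasl2 and Parp14 were at background on all mock and IFN-gamma arrays of 1 h, with differences of 0.41, 0.28 and 0.05 there. Those with the more positive response at 1 h were Ramp3 (1.91), Vdr (1.75), Spon2 (1.67), Pde4b (1.5), Cd55 (1.49), Usp2 (1.40), Glis1 (1.39) and Rnd1 (1.35). Of these, Pde4b and Rnd1 were called higher at 1 h. The other 6 were not called at 1 h and differed from mock at 3 h by -1.25 (Ramp3), -1.20 (Vdr), -1.02 (Spon2), -1.28 (Cd55), -0.82 (Usp2) and -1.10 (Glis1).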

How the results depend on the processing

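The count of 192 calls against mock rested most on the replicate block. It was 46 without the block on 12 arrays (45 higher), 95 without it on all 24 arrays and 428 with the block on 21 arrays (255 higher). It was 127 with values below 4 set to 4, 113 with no filter and 301 with array weights, and between 92 and 148 with a replicate or an array left out. Quantile normalization, a trended robust fit, the pair of groups alone and a filter on their 8 arrays kept it between 152 and 230. The share of higher calls was 76% in the reported fit, 97.8% and 88.4% without the block on 12 and 24 arrays, 59.6% with it on 21 arrays, and 66.1% with array weights.

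The 151 calls against IFN-alpha became 21 and 70 without the block on 12 and 24 arrays, 401 with it on 21 arrays, 61 with the pair of groups alone, 83 with no filter, 276 with array weights and 66 to 122 with a replicate or an array left out. The 527 calls between the times became 158 without the block, and 394 to 536 with an array left out. Of 45 called named genes 15 kept direction and call in every setting run. Over 1017 combinations of a gene and a setting, 210 lost the call and 2 reversed sign. The reversals were other probe sets, 1455082_at of Cblb (-0.11) and 1438956_x_at of Pim3 (-0.15). The cause of these changes was not tested. Genes near background have only a lower bound on their fold.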

Other observations

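Beyond the lists and the rule for named genes, other called genes were looked at after their values were seen. Sbno2, a transcriptional coregulator of the interleukin 10 response, rose on 3 of 4 probe sets (1.62, 2.08 and 2.12, with 0.82 on the fourth). Dact1, an inhibitor of Wnt signalling, rose from 6.12, 6.82, 6.37 and 6.92 to 8.12, 8.37, 7.69 and 8.68 (1.66 ± 0.12). Notch1, a receptor of cell contact signalling, rose by 1.23 ± 0.12 and Hk2, a hexokinase of glycolysis, by 1.19 ± 0.13, both without overlap between groups and both higher than with IFN-alpha (by 0.95 and 1.12). Noct, a circadian phosphatase gene, rose by 0.84 ± 0.085, and F3, which encodes tissue factor, by 0.78 ± 0.096. Without the block on 24 arrays F3 was not called (adjusted p = 1 in limma), and on the same 12 arrays neither were Sbno2, Notch1, Hk2 and Noct (adjusted p from 0.101 for Notch1 to 0.517 for Hk2). At 3 h the difference was 1.90 for Dact1, 2.06 for Notch1, 2.27 for Hk2, 0.87 for Noct and 2.28 for F3.

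Large rises also lay in probe sets that the annotation gives to several genes or to none. On 1449009_at, given to several, mock arrays read 3.09, 5.03, 2.79 and 3.09 and IFN-gamma arrays 8.57, 8.98, 8.33 and 8.72 (5.15 ± 0.26), and the difference reached 10.06 at 3 h. On 1440481_at, given to none, they read 2.33, 3.88, 2.39 and 2.35 and 6.58, 7.59, 6.53 and 6.83 (4.14 ± 0.13), with 4.58 at 3 h. Mock replicate 2 was the highest mock array for both. Some risen genes had another risen gene near them on the chromosome. These were Cxcl9 with Cxcl10, Gbp2 with Gbp7, Igtp with Irgm2, Mt1 with Mt2, and Ap1ar, Fam241a and Tifa together. The last group is weak. Ap1ar was called only on 1446235_at, while its representative probe set differed by 0.03. The representative of Fam241a was not called (adjusted p = 0.0521 in limma), and both group means of Tifa lay below 4 (2.45 and 3.93). No share of such neighbours over all tested genes was taken. The starts of Gbp2 and Gbp7 lie 90.3 kb apart, with Gbp3, which was not called, between them.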
